A study of Mus musculus with 5 samples.

Results

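Mast cells were examined in single-cell RNA sequencing of mouse ventral skin. They were taken as the cell barcodes in which the mast cell protease genes Cpa3, Mcpt4, Cma1 and Tpsb2 together made up at least 0.5% of the unique molecular identifiers (UMIs, the counted transcript molecules), and in which the collagen and matrix genes Col1a1, Col1a2, Col3a1 and Dcn made up less than 1%. Only barcodes with 300 or more genes and no more than 10% of UMIs from mitochondrial genes entered. The cells were thus selected on the levels of these 8 genes, which are given as a description, with no test. There were 133 mast cells among 10611 kept cells (11084 barcodes in all).

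All libraries came from C57BL/6J mice at postnatal day 28, and each library was made from the combined cells of 2 mice. There were 2 wild-type libraries (WT) and 3 libraries from Prx1Cre+Ikkbf/f mice (Ikkb_cKO). Ikkbf/f are floxed alleles of Ikkb, in current nomenclature Ikbkb, the gene of the kinase IKKβ that releases the transcription factor NF-kB from its inhibitors. In Prx1Cre mice a Prrx1 enhancer drives Cre recombinase in mesenchyme of the limb buds and ventral body wall, so the deletion is directed at mesenchymal cells and not at blood-derived cells.

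Mast cells are tissue-resident cells of blood origin that lie around vessels and nerves of the dermis. They store histamine, serotonin, heparin and neutral proteases in granules and release them when IgE on the receptor FcεRI is cross-linked, or when cationic peptides bind receptors of the Mrgpr family. They depend on stem cell factor, which fibroblasts and keratinocytes make and which acts through the receptor Kit, and connective tissue mast cells of rodent skin carry chymases, tryptases and carboxypeptidase A3.

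The targeted gene was sparsely counted in mast cells. Ikbkb had 11 UMIs in 10 mast cells, with 37.1 and 40.5 CPM in WT and 0, 0 and 41.5 CPM in Ikkb_cKO, and was not tested there. Prrx1 had 0 UMIs in the 133 mast cells and 4926 UMIs in the other kept cells. In the collagen-expressing cells, where Prrx1 is expressed, Ikbkb stood at 14.9 and 19.3 CPM in WT and 16.4, 21.7 and 17.7 CPM in Ikkb_cKO (CPM, UMIs scaled to a sum of 1000000 per library and cell class), and the genotypes did not differ past the threshold (edgeR log2 fold change 0.09, SE 0.22, adjusted p = 0.772). Counts at transcript ends need not fall in the deleted part of the gene, so they do not check the deletion.

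Mast cells numbered 35 and 43 in WT libraries 1 and 2 and 25, 8 and 22 in Ikkb_cKO libraries 1, 2 and 3. As shares of kept cells these were 1.13% (95% Clopper-Pearson interval 0.791 to 1.57) and 1.32% (0.959 to 1.78) in WT, and 2.54% (1.65 to 3.73), 0.871% (0.377 to 1.71) and 0.929% (0.583 to 1.40) in Ikkb_cKO. Ikkb_cKO library 1 had the highest share and the other Ikkb_cKO libraries the lowest, so the genotypes overlapped. The means were 1.23% ± 0.134 (SD, n = 2) and 1.45% ± 0.948 (SD, n = 3), and an exact two-sided permutation test over libraries, with 10 arrangements, gave p = 1.0, where the smallest p it allows is 0.2. The difference of 0.219 percentage points rested on 1 library and became -0.328 without Ikkb_cKO library 1. Against kept cells under the collagen limit only, WT had 2.72% and 3.26% and Ikkb_cKO 5.33%, 1.79% and 1.46%, a difference of -0.128 points. Intervals cover counting error only.

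Sequencing depth differed between the genotypes. The 5 libraries held 14659158 and 16773096 UMIs (WT) and 2163166, 2350022 and 9738296 UMIs (Ikkb_cKO), of which the mast cells held 107794, 123476, 46125, 18547 and 48249. The median mast cell had 3419 and 2964 UMIs in WT against 1593, 1602 and 2000.5 in Ikkb_cKO, with no overlap (exact two-sided permutation p = 0.2, the smallest possible). Mitochondrial genes took 2.09% and 2.34% of the median WT mast cell's UMIs and 4.38%, 3.24% and 4.70% in Ikkb_cKO, also without overlap. Pairs of libraries shared 0 to 17 barcodes (at most 0.635% of the smaller library) and no shared barcode was a mast cell in both. In mast cells the WT libraries differed only slightly more than sampling noise (chi-square per degree of freedom 1.49). Ikkb_cKO libraries 1 and 2 came next (1.99). Ikkb_cKO library 3 stood at 3.97 from library 1 and 4.19 from library 2 of its genotype. That is within the range of the pairs across genotypes, 3.75 to 7.91. A chi-square also grows with the UMIs summed, which differ between libraries, so these values are not on 1 scale. All 5 libraries were kept as separate samples. The labels give no preparation dates, and p-values reflect only how far these libraries spread, part of which may be technical.

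**Figure D1:**
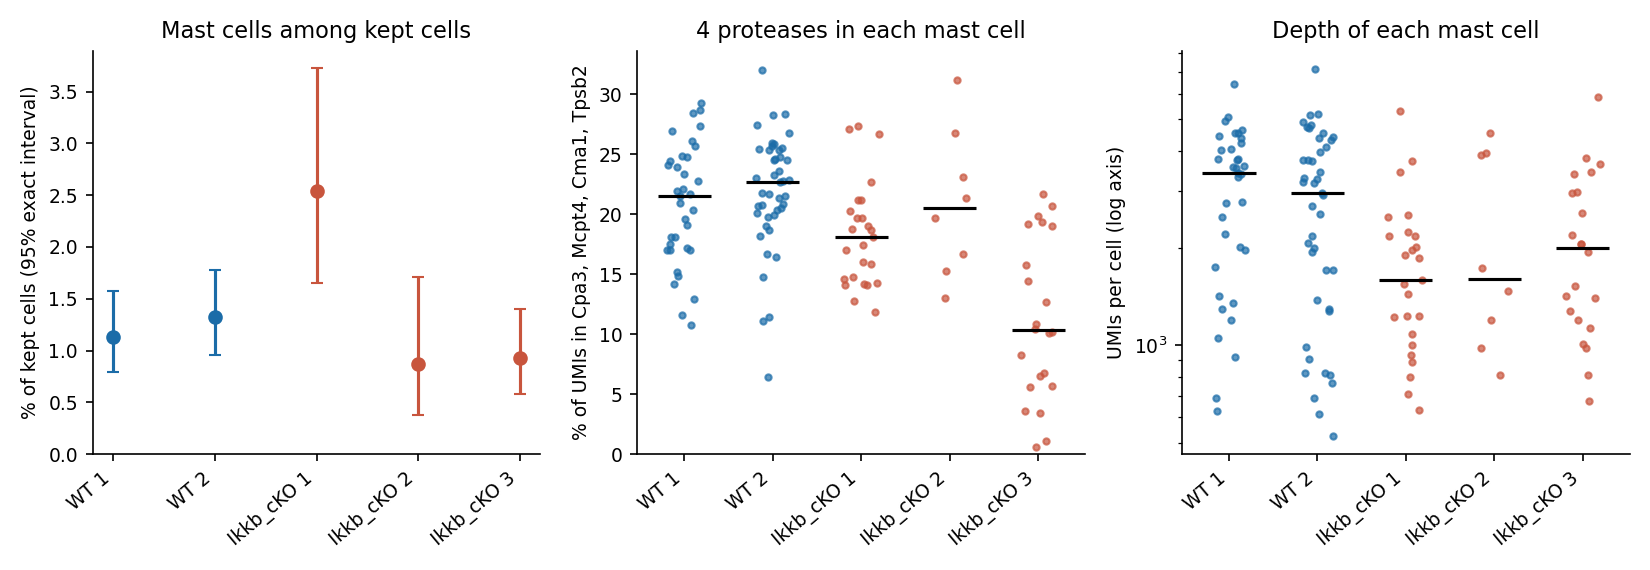
Mast cells by library: share of kept cells in percent with its 95% interval (left), the 4 proteases of the rule as percent of each cell's UMIs (middle) and UMIs per cell on a log axis (right), with 1 point per cell in the last 2 panels. The shares run from 0.871% to 2.54% and overlap between genotypes, while median depth is lower in all 3 Ikkb_cKO libraries.

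The label was checked on 7 mast cell markers that the rule did not use (Kit, Tpsab1, Fcer1a, Ms4a2, Hdc, Mrgprb2 and Gata2). The median cell had UMIs of 5 of them, 124 cells had 3 or more, 8 had 1 or 2, and 1 cell had none. Kit, the receptor for stem cell factor, was found in 122 cells. The protease share was far from the threshold in nearly all cells, with a median of 19.9% and a highest value of 32.07%, and 129 cells lay above 5%. By library the median was 21.5% and 22.7% in WT and 18.1%, 20.5% and 10.3% in Ikkb_cKO, so Ikkb_cKO library 3 was lowest. The 3 cells just inside the threshold, all from Ikkb_cKO library 3, had 0.566%, 1.11% and 3.44%, and the 3 just outside had 0.251%, 0.236% and 0.195%. A cell of WT library 2 with 2.08% protease UMIs was left out by the collagen limit, at 1.21%. Mcpt8, the defining basophil protease, was found as 1 UMI each in 4 mast cells and as 6 UMIs in all other kept cells. Other genes listed beforehand as basophil markers were present in mast cells, with 571 UMIs of Prss34, 409 of Cyp11a1 and 143 of Cd200r3. The basophil list also holds Gata2, Hdc, Ms4a2 and Fcer1a. Of its 13 tested genes 10 were higher in mast cells than in other kept cells and 1 lower by edgeR, against 8.77% higher over all genes.

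Many defining markers of other cell types were at 0 in the mast cells, while Apoe and genes of the dendritic list were not. The macrophage genes C1qb, C1qc, Adgre1 and Csf1r were at 0, and of 1101 UMIs over the 10 macrophage genes 1058 were Apoe, which was higher in mast cells than in the other kept cells (edgeR log2 fold change 1.76, SE 0.20, adjusted p = 6.33e-18). Of 12 T and innate lymphoid cell genes 8 were at 0, including Cd3e and Trac, and 10 of 11 granulocyte genes were at 0. The dendritic list summed to 677 to 3725 CPM in WT and 53.9 to 3876 CPM in Ikkb_cKO, and 3 cells, from WT libraries 1 and 2 and Ikkb_cKO library 3, held 393 of the 403 UMIs of Cd74, the invariant chain of MHC class II. Keratinocyte genes summed to 18.6 to 24.3 CPM in WT and 0 to 995 CPM in Ikkb_cKO, with Krt5, Krt14 and Krt15 at 0. A doublet score marked 7 mast cells.

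The proteases of the rule are stored in granules and bound to heparin. Mcpt4 and Cma1 encode chymases, which cut after aromatic residues, Tpsb2 encodes a tryptase, which cuts after basic residues, and Cpa3 encodes carboxypeptidase A3. Their genes lie in 3 places. Cma1 (chromosome 14, 55941451 to 55944675, minus strand, GRCm38) and Mcpt4 (56059629 to 56062313, minus strand) lie in the chymase cluster, Tpsb2 (chromosome 17, 25366305 to 25369098, plus strand) in the tryptase cluster, and Cpa3 on chromosome 3 (20215620 to 20242181, minus strand). Mast cell genes are regulated by GATA2, which binds GATA motifs. AGATAA and TGATAA were searched on both strands in the 250 bases before start sites (RefSeq, GRCm38.p6). The genes searched were Cpa3, Mcpt4, Cma1, Fcer1a, Il1rl1, Hdc, Kit, Csf2 and Prss34. No start site was matched for Tpsb2 or Tpsab1, so these were not searched. The windows of 4 of the genes with a match and of Cma1, with none, are printed 5′ to 3′ along the gene's strand. They are in lower case with the matches in capitals. They are Cpa3 (chr3:20242182-20242431, minus strand), Mcpt4 (chr14:56062311-56062560, minus), Cma1 (chr14:55944676-55944925, minus), Fcer1a of the IgE receptor (chr1:173227230-173227479, minus) and Il1rl1, the IL-33 receptor, at its downstream start (chr1:40439379-40439628, plus).
Cpa3: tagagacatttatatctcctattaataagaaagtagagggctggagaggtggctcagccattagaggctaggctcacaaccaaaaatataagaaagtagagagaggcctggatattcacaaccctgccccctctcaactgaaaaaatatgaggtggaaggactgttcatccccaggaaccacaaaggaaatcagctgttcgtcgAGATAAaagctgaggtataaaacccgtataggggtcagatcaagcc
Mcpt4: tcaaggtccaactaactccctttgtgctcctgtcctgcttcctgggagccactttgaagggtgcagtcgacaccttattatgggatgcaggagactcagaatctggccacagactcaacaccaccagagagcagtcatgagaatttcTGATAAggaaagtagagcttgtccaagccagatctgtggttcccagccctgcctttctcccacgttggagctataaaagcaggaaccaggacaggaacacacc
Cma1: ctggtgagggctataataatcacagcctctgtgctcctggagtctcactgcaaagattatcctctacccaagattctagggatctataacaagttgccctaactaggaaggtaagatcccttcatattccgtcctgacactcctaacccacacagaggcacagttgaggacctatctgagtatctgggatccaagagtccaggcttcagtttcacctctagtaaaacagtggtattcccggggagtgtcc
Fcer1a: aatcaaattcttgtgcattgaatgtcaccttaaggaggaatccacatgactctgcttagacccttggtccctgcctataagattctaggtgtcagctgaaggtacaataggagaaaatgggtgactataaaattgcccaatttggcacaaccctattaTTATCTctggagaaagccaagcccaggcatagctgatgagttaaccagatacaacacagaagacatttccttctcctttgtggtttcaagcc
Il1rl1: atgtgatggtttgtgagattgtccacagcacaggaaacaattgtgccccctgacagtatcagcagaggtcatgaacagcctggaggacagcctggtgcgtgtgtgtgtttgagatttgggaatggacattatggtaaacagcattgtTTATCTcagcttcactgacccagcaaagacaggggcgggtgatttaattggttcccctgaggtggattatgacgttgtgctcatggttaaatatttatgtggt
The match ended 40 bases before the start in Cpa3, 97 in Mcpt4, 86 in Fcer1a and 97 in Il1rl1. Windows not printed also had matches, ending 25 bases before the start in Prss34, 241 in Csf2, and 211 and 74 at the upstream start of Il1rl1. Neither motif was found in the windows of Cma1, Hdc or Kit. Such a match was present in 5452 of 32851 promoters of this length (16.6%), and it is given as a description of the sequence. The searched genes were a chosen few, so their matches give no rate to compare with it.

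Transcripts of the 4 proteases made up 19.7% of all mast cell UMIs, as counts of molecules that are not scaled by transcript length. Mcpt4 took the largest share of UMIs of the 4 in WT mast cells, at a median of 9.28% and 10.7% of a cell's UMIs, against 5.71%, 5.47% and 3.08% in Ikkb_cKO. Cma1 stood at 5.44% and 5.67% in WT and 5.59%, 6.59% and 3.13% in Ikkb_cKO. All Mcpt4 medians were lower in Ikkb_cKO than in WT, while those of Cma1 overlapped. Tpsb2 had medians of 4.19% and 4.49% in WT and 4.28%, 5.00% and 2.29% in Ikkb_cKO, and Cpa3 of 1.78% and 1.63% against 1.64%, 2.00% and 1.58%. Ikkb_cKO library 3 had the lowest value of each. The ratio of summed Mcpt4 to Cma1 UMIs was 1.85 and 1.89 in WT and 1.02, 0.912 and 1.15 in Ikkb_cKO. Mcpt4 exceeded Cma1 in 34 of 35 and 39 of 43 WT cells and in 11 of 25, 4 of 8 and 14 of 22 Ikkb_cKO cells. Since these genes chose the cells, the values are not tested. Outside the mast cells a Mcpt4 UMI was present in 0.516% of macrophages and 0.711% of lymphocytes, with median depths of 1972 and 2620 UMIs against 2197 in mast cells.

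**Figure D2:**
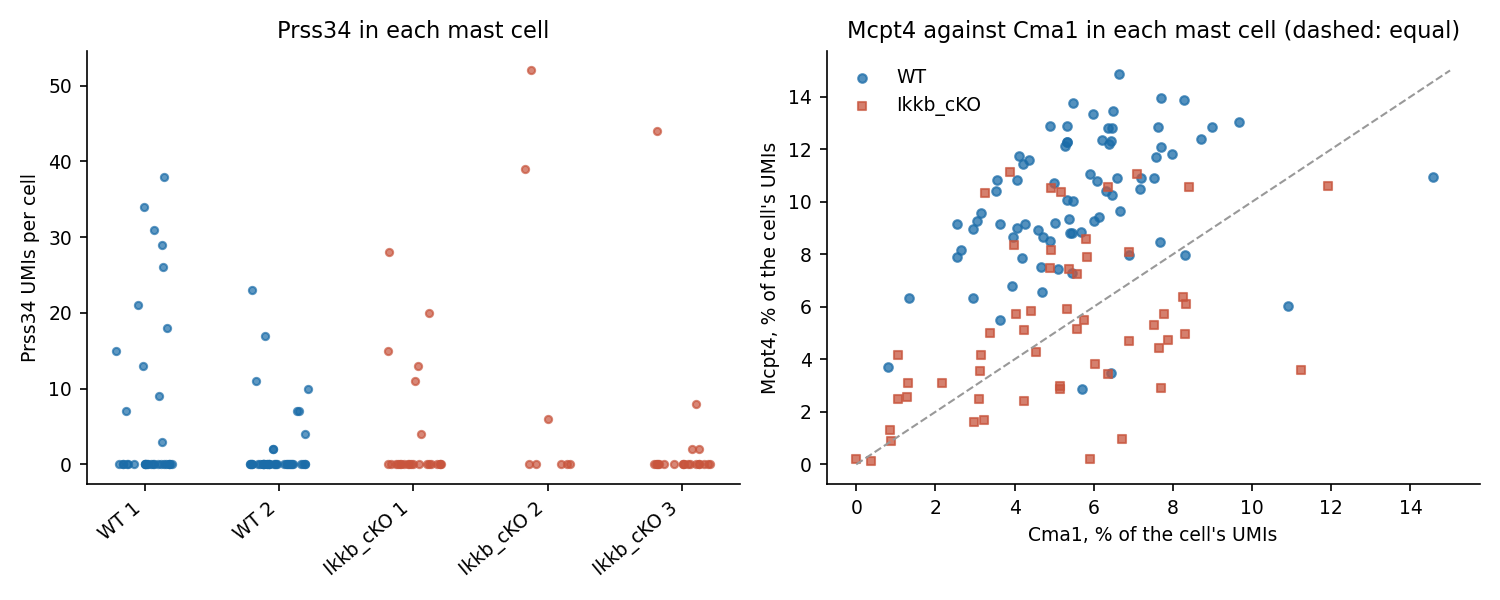
Single mast cells: UMIs of the tryptase Prss34 per cell by library (left) and Mcpt4 against Cma1, each as percent of the cell's UMIs (right), 1 point per cell, with the line of equality. Prss34 is at 0 in 99 cells and reaches 52 UMIs in others, and most WT cells lie on the Mcpt4 side of the line.

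Within the protease clusters, expression was limited to a few genes. In the chymase cluster Mcpt4 had 29132 UMIs and Cma1 18209, followed by Ctsg (cathepsin G) with 64 and Cma2 with 36. Mcpt2, a mucosal mast cell chymase, had 19 UMIs in 2 cells, Mcpt1 had 1 UMI and Mcpt9 had 0. In the tryptase cluster Tpsb2 had 14076 UMIs in 132 cells, Prss34 571 in 34 cells, Tpsab1 441 in 71 cells and Tpsg1, a membrane-anchored tryptase, 198 in 79 cells. Tpsb2 and Tpsab1 are close paralogs whose reads can be split or dropped in counting, so their separate values are uncertain. Across the 133 cells the percentages of the 4 proteases of the rule correlated with Pearson's r between 0.213 (Cpa3 with Mcpt4) and 0.509 (Cma1 with Tpsb2), a description over cells that share libraries and depth.

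Prss34, a tryptase best known from basophils, divided the mast cells. It had 0 UMIs in 99 cells, 1 to 3 UMIs in 5 and 4 or more in 29, with at most 52 in a cell. Cells with Prss34 were deeper (median 3407.5 UMIs against 1977), but among cells over 3000 UMIs 21 had it and 31 did not. Levels were 2264 and 672 CPM in WT libraries 1 and 2 and 1973, 5230.0 and 1161 CPM in Ikkb_cKO libraries 1, 2 and 3, with no order by genotype. The cells with Prss34 were found in all 5 libraries, at 34.3% and 20.9% of WT cells and 24.0%, 37.5% and 18.2% of Ikkb_cKO cells. Outside the mast cells 7 Prss34 UMIs were found.

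Compared with all other kept cells of the same libraries, mast cells had many genes at higher levels, some of them found almost nowhere else in this skin. Sums per library were tested with edgeR's quasi-likelihood test with library as a block, Benjamini-Hochberg adjustment over all genes tested and a threshold of 0.05, which is used for every call below. Of 8117 genes tested, 712 were higher in mast cells (8.77%) and 2206 lower (27.2%), with a median log2 difference of -0.55. Folds are left out for genes with few UMIs elsewhere, and the counts are given instead. Receptors were among the genes that were higher. Mrgprb1 had 621 UMIs in mast cells and 1 in all other kept cells, Mrgprb2, the receptor for cationic secretagogues, 212 and 2, and Mrgprx2, a further member of the family, 60 and 0. Fcer1a, the IgE-binding chain of FcεRI, had 271 and 2, and Ms4a2, its β chain, 94 and 4.

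Of 5 tested granule proteases outside the rule 4 were higher, namely Tpsab1, Tpsg1, Cma2 and Ctsg. Genes of the amine pathway were higher as well. Hdc, which makes histamine from histidine, had 1765 UMIs in mast cells and 298 elsewhere (edgeR log2 fold change 9.15, SE 1.04, adjusted p = 0.00385). Tph1, the first enzyme of serotonin synthesis, had 230 and 7, Slc6a4, the serotonin uptake transporter, 314 and 19, and Slc18a2, which loads amines into vesicles, 195 and 31. Srgn, the core protein that carries heparin chains, was higher than in other cells (edgeR log2 fold change 3.28, SE 0.21, adjusted p = 1.29e-23), as was Serpinb1a, an inhibitor of chymotrypsin-like proteases (edgeR log2 fold change 7.48, SE 0.23, adjusted p = 1.38e-220). Of 19 tested genes for amines, proteoglycan and granules 14 were higher and 2 lower, Lamp1 and Lamp2, with a median log2 difference of 4.52 against -0.55 over all genes. Other genes higher in mast cells were Cyp11a1, a steroidogenic enzyme (409 and 45 UMIs), and Cd200r3, an activating receptor of the CD200 receptor family (143 and 52). Rgs13, a brake on G protein signalling (52 and 5), and Slc30a2, a zinc transporter (29 and 1), were higher too. In the other kept cells mean levels were higher in Ikkb_cKO than in WT for Cyp11a1 (3.75 against 0.0693 CPM), Cd200r3 (2.15 against 0.489) and Hdc (18.0 against 1.72). Cyp11a1 lost its call in edgeR's test without WT library 1 (adjusted p = 0.0680) and without Ikkb_cKO library 1 (0.0639).

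Of 25 tested activating receptors 17 were higher and 6 lower, with a median log2 difference of 1.68. Kit (edgeR log2 fold change 7.05, SE 0.67, adjusted p = 9.02e-05), Il1rl1 (edgeR log2 fold change 3.98, SE 0.24, adjusted p = 1.91e-59) and Csf2rb, the shared β chain of the IL-3 and GM-CSF receptors (edgeR log2 fold change 3.13, SE 0.28, adjusted p = 1.31e-27), were higher. Kit was also present in 163 of 1266 lymphocytes (12.9%). Those lower included Il4ra, Ifngr1 and Tlr2. Of 8 inhibitory receptors 5 were higher, among them Pilra and Milr1, and Csf1r, with 0 UMIs in mast cells, was lower. Of 22 genes of FcεRI signalling 12 were higher and 1 lower, for example the adaptor Lat2 at a log2 difference of 4.72 (adjusted p = 4.19e-57) in edgeR's test.

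Among 20 transcription factors tested, 9 were higher and 2 lower. Gata2 (edgeR log2 fold change 8.33, SE 0.34, adjusted p = 6.06e-129) and Tal1, a partner of GATA factors (edgeR log2 fold change 7.17, SE 0.46, adjusted p = 2.47e-52), stood out, and Gata1 had 17 UMIs in mast cells and 0 elsewhere. Mitf, the factor whose loss leaves mice short of mast cells, had an edgeR log2 difference of 2.05 (adjusted p = 2.64e-07). Of 9 eicosanoid enzymes 2 were higher and 5 lower. Hpgds, the prostaglandin D2 synthase, had an edgeR log2 difference of 4.64 (adjusted p = 4.63e-31) and Alox5, the first enzyme of leukotriene synthesis, of 3.74 (adjusted p = 7.51e-21), while Ptgs2 was lower with 0 UMIs in mast cells. Of 14 cell cycle genes tested 11 were lower and 0 higher by edgeR (0 also at an unadjusted p under 0.05), and Mki67 had 1 UMI in all mast cells. Of 21 interferon-response genes 9 were lower and 0 higher by edgeR (1 at an unadjusted p under 0.05). Over all genes tested 27.2% were lower and 8.77% higher.

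Cytokine and chemokine genes were mixed, with 8 of 21 tested higher and 8 lower, against 8.77% and 27.2% over all genes. Il4 was higher in mast cells, at 375 UMIs against 201 elsewhere (edgeR log2 fold change 7.71, SE 1.37, adjusted p = 0.0164). Il13 had 448 UMIs in 83 mast cells but was not called. Its edgeR log2 difference was 3.21 (adjusted p = 0.338) from all other cells and 1.07 (adjusted p = 0.599) from lymphocytes. Il5 had 0 UMIs. Tnf (edgeR log2 fold change 4.51, SE 0.32, adjusted p = 1.47e-43) and Ccl7, a monocyte chemoattractant (edgeR log2 fold change 2.30, SE 0.18, adjusted p = 1.63e-33), were higher, while Il1b, Cxcl2 and Areg were lower. Early-response genes were also high, with 9 of 24 above the other cells and 5 below, for example, as edgeR log2 differences, Egr1 at 1.93 (adjusted p = 2.48e-23) and Nr4a1 at 1.95 (adjusted p = 2.39e-24).

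Against C1q-positive macrophages of the same skin, 302 of 1041 genes tested were higher (29.0%) and 305 lower (29.3%). Against lymphocytes 560 of 3055 were higher (18.3%) and 683 lower (22.4%). The granule genes were higher in both comparisons, 12 of 15 tested against macrophages and 15 of 16 against lymphocytes, and the activating receptors at 10 of 13 and 13 of 18. Of these lists, the lysosomal membrane genes Lamp1 and Lamp2, the anaphylatoxin receptors C3ar1 and C5ar1 and the IgG receptor Fcgr3 were lower in mast cells than in macrophages. The cytokine receptors Il2ra and Ifngr1 were lower than in lymphocytes. Il7r, counted among the 18, was lower too, but it is 1 of the genes that chose the lymphocytes, so its difference was set by that choice. Leaving out a WT library left 195 genes higher than in macrophages in each case, and 182 (without WT library 1) and 175 (without WT library 2) lower.

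**Figure D3:**
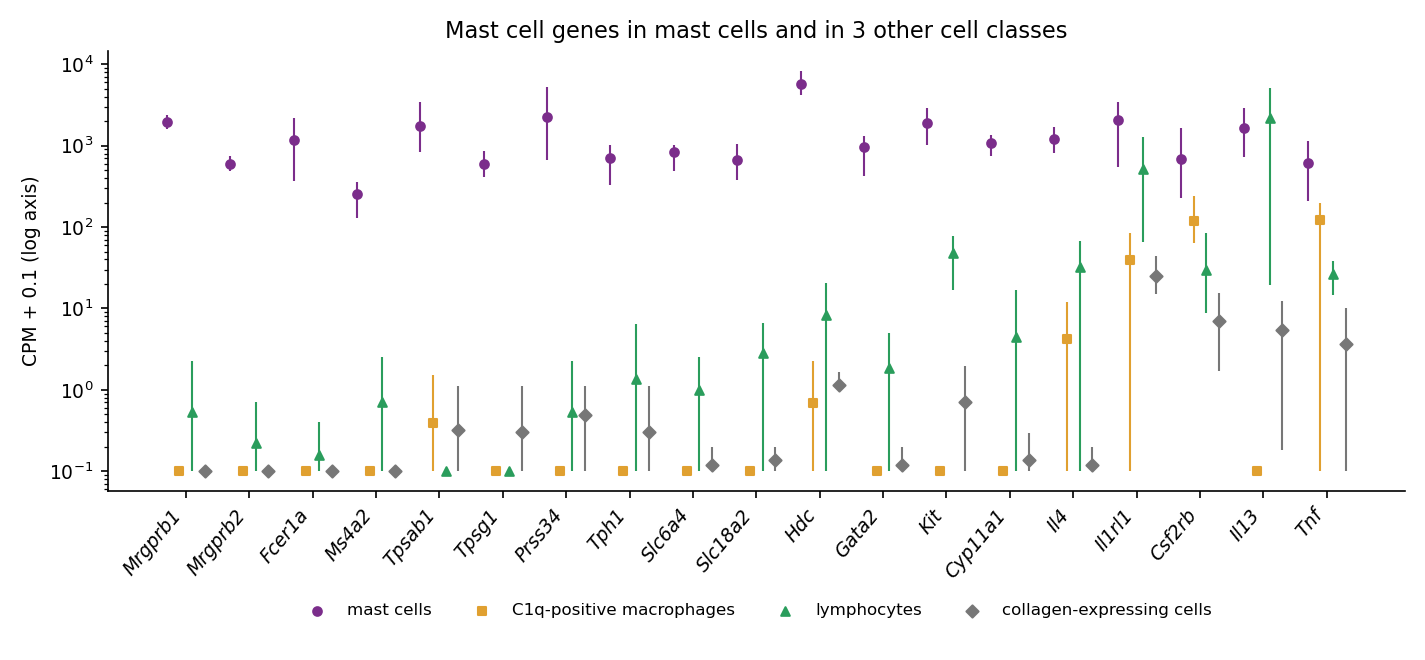
Levels of 19 genes in mast cells, C1q-positive macrophages, lymphocytes and collagen-expressing cells, in CPM plus 0.1 on a log axis. Points are means over the 5 libraries and lines run from the lowest to the highest library, and Mrgprb1, Fcer1a and Tpsab1 are near the floor outside mast cells.

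Single mast cells differed most in a few genes. With each cell thinned to 1000 UMIs, the variance over the mean had a median of 1.15 over 626 genes. It was 25.6 for the gene model Gm42418, 17.7 for Cd74, which was held mainly by the 3 cells described above, 14.8 for Mcpt4, 14.3 for the actin-binding Tmsb4x, 13.2 for Ccl7 and 12.8 for the chemokine Ccl4. These values pool the cells of all libraries, so differences between libraries and genotypes, such as that of Mcpt4, are part of them. Ccl4 UMIs came from 11 cells, with 81.8% in the top 3. Cells under 1000 UMIs, 22 of the 133, were left out of the thinned values.

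In Ikkb_cKO mast cells the transcripts of Fos, Ier2, Zfp36 and Dusp1 were lower by several fold, while Il1rl1, Fcer1a, Adora3, Furin and Nr4a3 were higher. Of 728 genes tested on the 5 library sums, 116 passed the threshold (15.9%), 72 higher in Ikkb_cKO (9.89%) and 44 lower (6.04%), and the median over all genes was 0.01 on the log2 scale. The called genes did not overlap between genotypes in any of the 116 cases, against 335 non-overlapping genes of all those tested (46.0%). An unadjusted p under 0.05 was reached by 230 genes. The counts depended on single libraries: 21 rose and 16 fell without WT library 1, 29 and 18 without WT library 2, 33 and 20 without Ikkb_cKO library 1, 112 and 56 without Ikkb_cKO library 2, and 105 and 103 without Ikkb_cKO library 3. Depth and mitochondrial share, given above, moved with genotype in the same cells. Ribosomal protein genes summed to 54985 to 60222 CPM in WT and 81106 to 101038 CPM in Ikkb_cKO, with 13 of 76 higher, and mitochondrial genes to 22599 to 23057 CPM and 29708 to 46302 CPM, with 2 of 11 higher. Their part in the results below was not tested. With each cell thinned to 1000 UMIs the counts were 40 higher and 27 lower among 342 genes tested.

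Early-response genes are switched on within minutes of a signal and encode AP-1 subunits and the proteins that end the response. Of 18 tested, 8 fell and 2 rose, with a median log2 difference of -0.54 against 0.01 over all genes. Over all genes tested 6.04% fell and 9.89% rose. Fos, an AP-1 subunit, stood at 16485 and 16432 CPM in WT libraries 1 and 2 and 1583, 2211 and 2010.4 CPM in Ikkb_cKO libraries 1, 2 and 3 (edgeR log2 fold change -3.23, SE 0.31, adjusted p = 3.83e-06). Every Ikkb_cKO library lay several fold below both WT libraries, and the libraries of each genotype were close together. Ier2, a nuclear protein induced by growth factors, had 9119 and 6406 CPM in WT libraries 1 and 2 and 780.5, 701 and 559.6 CPM in Ikkb_cKO libraries 1, 2 and 3 (edgeR log2 fold change -3.64, SE 0.32, adjusted p = 2.75e-06). Zfp36 encodes tristetraprolin, which speeds decay of cytokine mRNAs, and had 8433 and 8342 CPM in WT libraries 1 and 2 and 932, 1132 and 1347 CPM in Ikkb_cKO libraries 1, 2 and 3 (edgeR log2 fold change -3.02, SE 0.28, adjusted p = 3.83e-06). Again no Ikkb_cKO library reached the WT range.

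Dusp1, the phosphatase that switches off p38 and JNK kinases, had 7032 and 6471 CPM in WT libraries 1 and 2 and 1322, 971 and 2197 CPM in Ikkb_cKO libraries 1, 2 and 3 (edgeR log2 fold change -2.28, SE 0.30, adjusted p = 0.000151). Jun, the AP-1 partner of Fos, had 8832 and 8593 CPM in WT and 2558, 3666 and 2301 CPM in Ikkb_cKO (edgeR log2 fold change -1.75, SE 0.30, adjusted p = 0.000746). Klf6, a zinc-finger factor, had 2774 and 2762 CPM in WT and 694, 647 and 1057 CPM in Ikkb_cKO (edgeR log2 fold change -1.90, SE 0.27, adjusted p = 0.000252). None of these 3 overlapped between genotypes, and library 3 had the highest Ikkb_cKO level of Dusp1 and Klf6. The other falls in edgeR's test were Klf2, with a log2 fold change of -1.54 (adjusted p = 0.042), and Egr1, with -1.02 (adjusted p = 0.0335). Abundant members without a call were Junb at -0.91 (adjusted p = 0.0779), Fosb at 0.29 (adjusted p = 0.486), Jund at 0.16 (adjusted p = 0.752) and Nr4a1 at -0.18 (adjusted p = 0.73), all log2 fold changes of edgeR. Nr4a3, an orphan nuclear receptor, rose, with 148 and 162 CPM in WT and 1149, 539 and 1679 CPM in Ikkb_cKO (edgeR log2 fold change 2.77, SE 0.40, adjusted p = 0.000253). The AP-1 subunit Fosl2 rose by a log2 fold change of 1.54 (adjusted p = 0.00927). Thinning to 1000 UMIs per cell left 66 WT and 45 Ikkb_cKO cells. Ikkb_cKO library 2 had 8 mast cells, 2 of them under 1000 UMIs and left out. Thinned, Fos was found in 96.9% and 100% of WT mast cells and in 50%, 50% and 47.4% of Ikkb_cKO mast cells. Unthinned, it was found in 97.4% of all WT and 67.3% of all Ikkb_cKO cells. Fosl2 lost its call without WT library 1 or Ikkb_cKO library 1, Egr1 without either WT library or Ikkb_cKO library 2, and Klf2 without Ikkb_cKO library 1 or 2. Klf2 also lost it with cells thinned to 1000 UMIs (adjusted p = 0.0555 by edgeR) and by DESeq2's Wald test (0.0666).

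**Figure D4:**
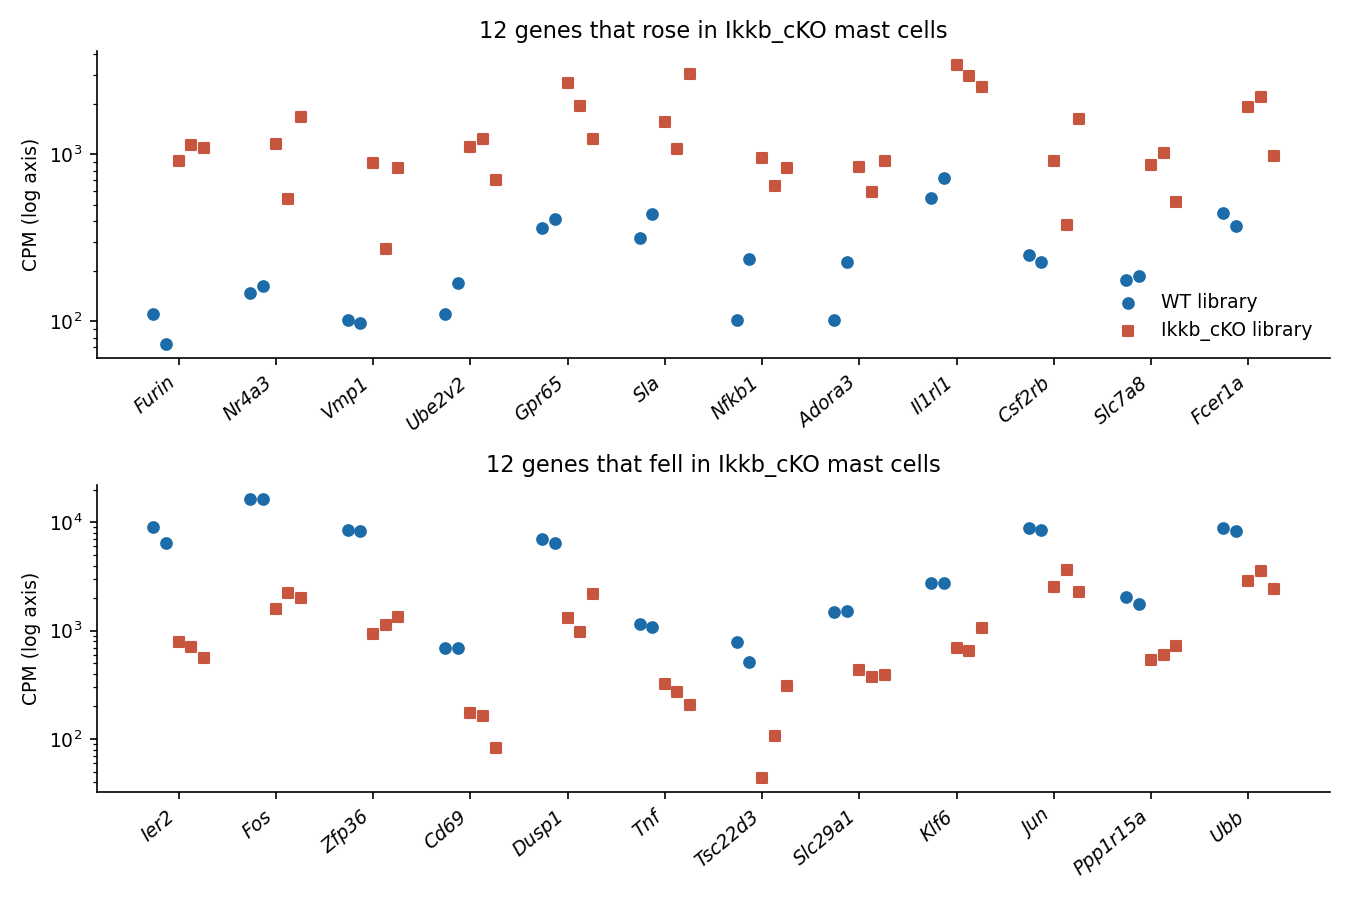
CPM in mast cells of each library, on a log axis, for the 12 largest rises and the 12 largest falls among called genes of at least median abundance, 1 point per library. The 2 WT and 3 Ikkb_cKO libraries do not overlap for any of these genes, and Ier2, Furin and Fos differ most between them.

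Of 12 tested receptors through which mast cells are activated, 5 rose and 0 fell by edgeR, against 9.89% and 6.04% over all genes tested. The median log2 fold change was 0.64. Lower at an unadjusted p under 0.05 were 2 receptors, and by DESeq2's Wald test 0. Those 2 were Fcgr3, at an edgeR log2 fold change of -1.21 (adjusted p = 0.108), and Il2rg, the common cytokine receptor γ chain, at -0.96 (adjusted p = 0.0924). Il1rl1, which with its partner Il1rap binds the alarmin IL-33, had 547 and 721 CPM in WT libraries 1 and 2 and 3447, 2965 and 2529 CPM in Ikkb_cKO libraries 1, 2 and 3 (edgeR log2 fold change 2.11, SE 0.30, adjusted p = 0.000252). Fcer1a had 445 and 373 CPM in WT and 1929.5, 2211 and 974 CPM in Ikkb_cKO (edgeR log2 fold change 1.92, SE 0.38, adjusted p = 0.00265). Adora3, the adenosine A3 receptor, had 102 and 227 CPM in WT and 846, 593 and 912 CPM in Ikkb_cKO (edgeR log2 fold change 2.13, SE 0.37, adjusted p = 0.000759). In each of these the lowest Ikkb_cKO library was above both WT libraries. Csf2rb had 250.5 and 227 CPM in WT and 911, 377 and 1637 CPM in Ikkb_cKO (edgeR log2 fold change 1.97, SE 0.42, adjusted p = 0.00552). Kit also rose, with 1169 and 1004 CPM in WT and 2537, 2912 and 1741 CPM in Ikkb_cKO (edgeR log2 fold change 1.01, SE 0.30, adjusted p = 0.0332). It lost its call without any 1 of WT libraries 1 and 2 and Ikkb_cKO libraries 1 and 2, and by DESeq2's Wald test (adjusted p = 0.0673). Leaving out Ikkb_cKO library 1 moved Fcer1a to an adjusted p of 0.0619 and Csf2rb to 0.0748, and leaving out WT library 1 moved Adora3 to 0.0890, while Il1rl1 passed in every alternative run.

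The other chains of FcεRI were not called. The edgeR log2 fold change was -0.65 (adjusted p = 0.295) for Ms4a2 and -0.42 (adjusted p = 0.343) for Fcer1g, the signalling γ chain. The peptide receptors Mrgprb1, at 0.28 (adjusted p = 0.471), and Mrgprb2, at -0.22 (adjusted p = 0.68), did not pass either. After thinning, Fcer1a was found in 25% and 26.5% of WT mast cells and in 90.0%, 100% and 36.8% of Ikkb_cKO mast cells. The 100% is from Ikkb_cKO library 2, which had 8 mast cells, 2 of them under 1000 UMIs and left out. Unthinned, Fcer1a was found in 41.0% of all WT and 72.7% of all Ikkb_cKO cells, against 1 of 1266 lymphocytes (0.0790%). Of 5 tested genes of FcεRI signalling 1 rose, against 9.89% over all genes tested. It was Inpp5d, which encodes the phosphatase SHIP1 that limits the signal, with an edgeR log2 fold change of 1.02 (adjusted p = 0.0444). That call was lost without any 1 of WT libraries 1 and 2 and Ikkb_cKO libraries 1 and 2. It was also lost with cells thinned to 1000 UMIs (adjusted p = 0.202 by edgeR) and by DESeq2's Wald test (0.171). Gpr65, a proton-sensing receptor outside the list, had 362 and 413 CPM in WT and 2667, 1941 and 1244 CPM in Ikkb_cKO (edgeR log2 fold change 2.22, SE 0.37, adjusted p = 0.000711). Sla, an adaptor that damps receptor signalling, had 315 and 437 CPM in WT and 1561, 1078 and 3047 CPM in Ikkb_cKO (edgeR log2 fold change 2.21, SE 0.37, adjusted p = 0.000759). Both genes were higher in every Ikkb_cKO library than in either WT library.

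Among NF-kB components 5 were tested, 2 rose and 1 fell, with a median of 0.67. Over all genes tested 9.89% rose and 6.04% fell. Nfkb1, the p105/p50 subunit, had 102 and 235 CPM in WT libraries 1 and 2 and 954, 647 and 829 CPM in Ikkb_cKO libraries 1, 2 and 3 (edgeR log2 fold change 2.14, SE 0.38, adjusted p = 0.000823). Rel, the c-Rel subunit, had 148 and 32.4 CPM in WT and 564, 269.6 and 311 CPM in Ikkb_cKO (edgeR log2 fold change 2.04, SE 0.57, adjusted p = 0.026). Nfkbia, the inhibitor IκBα and itself an NF-kB target, had 3247 and 2616 CPM in WT and 846, 1402 and 933 CPM in Ikkb_cKO (edgeR log2 fold change -1.64, SE 0.29, adjusted p = 0.000807). Both subunits lay above WT and the inhibitor below WT in all 3 Ikkb_cKO libraries. Nfkbiz, with an edgeR log2 fold change of 0.67 (adjusted p = 0.109), and Tnfaip3, the inhibitor A20, with an adjusted p of 0.997, did not pass. Without WT library 1 Nfkb1 had an adjusted p of 0.0887, and Rel lost its call without WT library 2 or Ikkb_cKO library 1 or 2. The upstream kinase subunits Ikbkb, Ikbkg and Chuk were too low to be tested.

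Of 11 cytokine genes tested 2 were higher and 1 lower, against 9.89% and 6.04% over all genes tested, with a median of 0.57. Counts this small do not set the list apart. Tnf had 1150.3 and 1093 CPM in WT and 325, 269.6 and 207 CPM in Ikkb_cKO (edgeR log2 fold change -2.19, SE 0.34, adjusted p = 0.000388), and no Ikkb_cKO library reached the WT range. Vegfa, an angiogenic factor, had 18.6 and 24.3 CPM in WT and 152, 485 and 290.2 CPM in Ikkb_cKO (edgeR log2 fold change 3.45, SE 0.71, adjusted p = 0.00323), from 35 UMIs in 16 cells. Csf2, the gene of GM-CSF, had 1 UMI in WT and 43 UMIs in Ikkb_cKO mast cells. The ratio was 88.1 per UMI (95% counting interval 15.0 to 3558, counting error only, without the spread of cells and libraries). The UMIs came from 9 cells, with 72.7% in the top 3, so the Csf2 value rested on few cells. The edgeR log2 fold changes of Il4, 0.38 (adjusted p = 0.368), Il13, 1.02 (adjusted p = 0.213), Ccl2, 0.20 (adjusted p = 0.911), and Ccl7, 0.57 (adjusted p = 0.321), did not pass.

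Of 13 tested genes for amines, proteoglycan and granules 1 rose and 1 fell, a share close to the 15.9% called over all genes, with a median of -0.04. Slc18a2 rose (edgeR log2 fold change 1.01, SE 0.31, adjusted p = 0.0383) and Serpinb1a fell (edgeR log2 fold change -0.93, SE 0.29, adjusted p = 0.0387), while Hdc at 0.57 (adjusted p = 0.205) did not pass. Among the 3 tested proteases outside the rule Tpsab1 was higher, with 826 and 964 CPM in WT and 1951, 3397 and 1658 CPM in Ikkb_cKO (edgeR log2 fold change 1.23, SE 0.33, adjusted p = 0.0225), a value that is uncertain as it is a paralog of Tpsb2. Of the 5 tested transcription factors 0 passed by edgeR or DESeq2's Wald test and 1 at an unadjusted p under 0.05, with a median of 0.47 and Gata2 at 0.89 (adjusted p = 0.0719). Of 6 interferon-response genes 0 passed by either tool and 2 rose at an unadjusted p under 0.05, with a median of 0.37. Slc18a2, Serpinb1a and Tpsab1 lost their calls without WT library 1, WT library 2 or Ikkb_cKO library 1, and also Slc18a2 without Ikkb_cKO library 3 and the other 2 genes without Ikkb_cKO library 2.

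**Figure D5:**
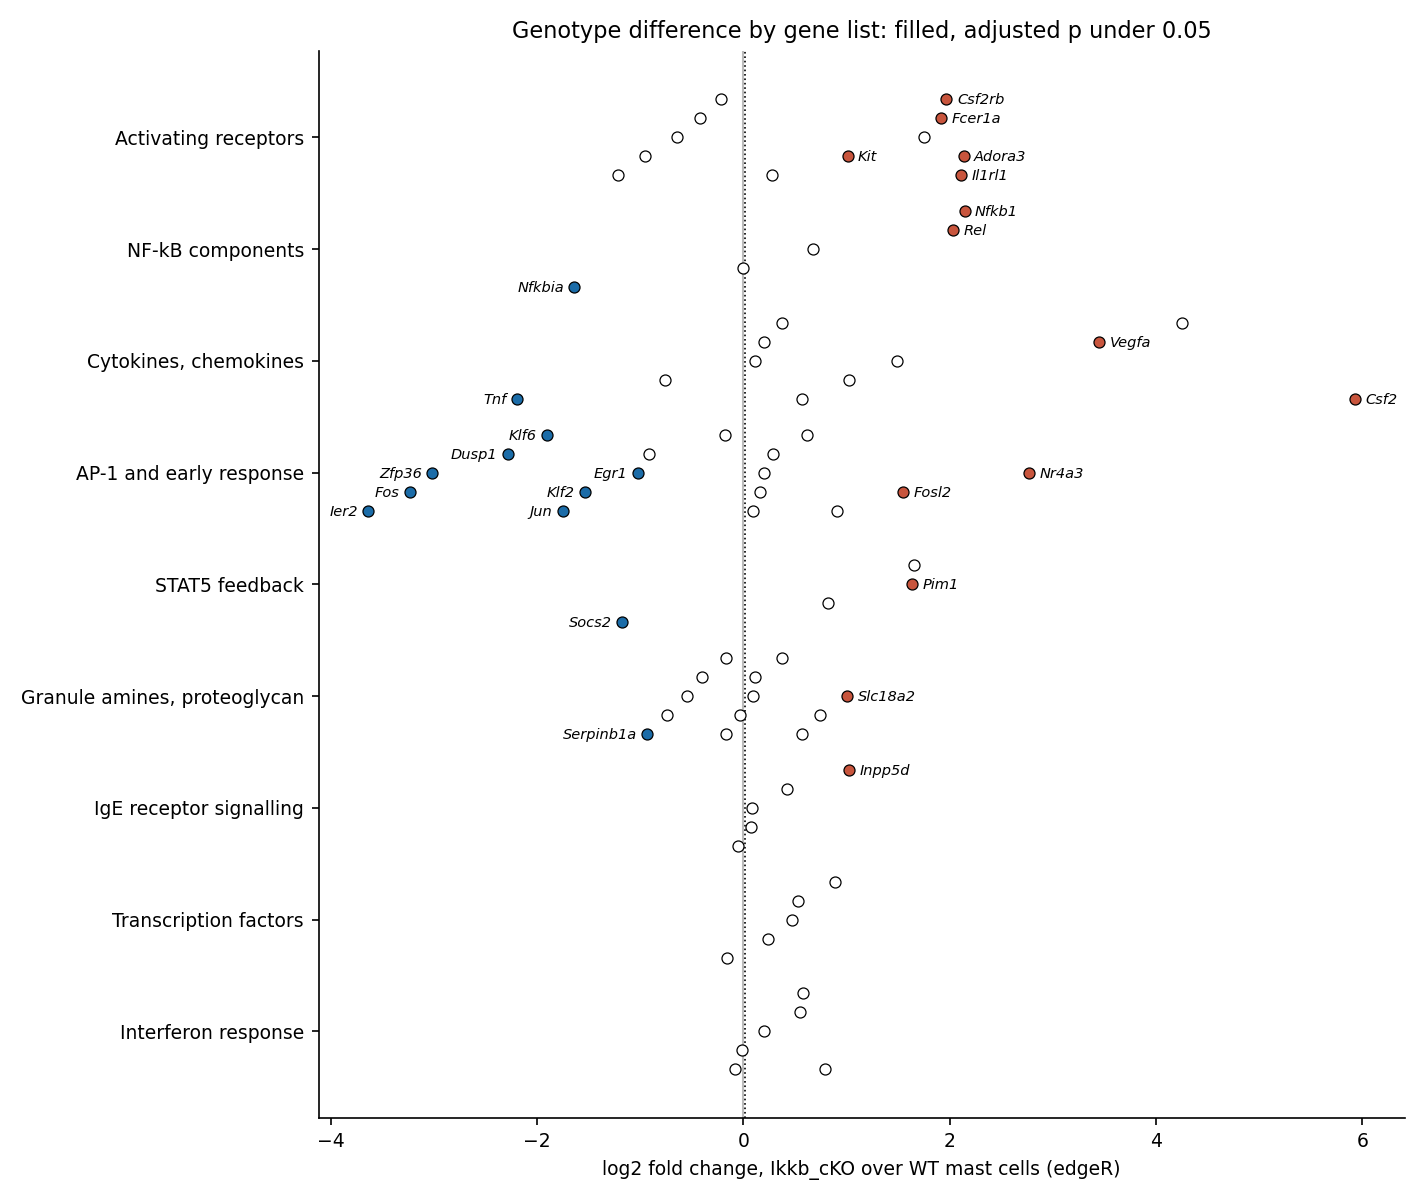
Log2 fold change of Ikkb_cKO over WT mast cells for the tested genes of 9 gene lists, 1 point per gene, with called genes filled and named and the median of all tested genes as a dotted line at 0.01. All 5 called activating receptors lie to the right, and of the called early-response genes 8 lie to the left and 2 to the right.

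STAT5 targets are induced by cytokine receptors such as Csf2rb and Kit. Of 4 tested 1 rose and 1 fell, against 9.89% and 6.04% over all genes tested. Pim1, a survival kinase, rose (edgeR log2 fold change 1.63, SE 0.40, adjusted p = 0.0117). Socs2 fell (edgeR log2 fold change -1.17, SE 0.33, adjusted p = 0.0247), and Cish, a feedback inhibitor, had an edgeR log2 fold change of 1.66 (adjusted p = 0.0559). Pim1 and Socs2 lost their calls without WT library 1, WT library 2 or Ikkb_cKO library 1, and Socs2 also without Ikkb_cKO library 2. Cd69, an early activation antigen outside the lists, had 696 and 688 CPM in WT and 173, 162 and 82.9 CPM in Ikkb_cKO (edgeR log2 fold change -2.49, SE 0.38, adjusted p = 0.000388). All 3 Ikkb_cKO libraries were several fold below WT.

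Most of the remaining genes of large change belonged to none of the mast cell lists. Furin, a proprotein convertase, had 111 and 72.9 CPM in WT and 911, 1132 and 1098 CPM in Ikkb_cKO (edgeR log2 fold change 3.35, SE 0.37, adjusted p = 1.6e-05), the largest rise among genes of at least median abundance. Vmp1, an autophagy protein, had 102 and 97.2 CPM in WT and 889, 269.6 and 829 CPM in Ikkb_cKO (edgeR log2 fold change 2.70, SE 0.42, adjusted p = 0.000422). Ube2v2, a ubiquitin-conjugating enzyme variant, had 111 and 170.1 CPM in WT and 1106, 1240.1 and 705 CPM in Ikkb_cKO (edgeR log2 fold change 2.67, SE 0.39, adjusted p = 0.000253). Furin was close to even over the Ikkb_cKO libraries, while library 2 was the lowest of them for Vmp1. Slc7a8, a neutral amino acid transporter, had 176 and 186 CPM in WT and 867, 1024 and 518 CPM in Ikkb_cKO (edgeR log2 fold change 1.96, SE 0.37, adjusted p = 0.00167). Slc29a1, a nucleoside transporter, fell, with 1475 and 1523 CPM in WT and 434, 377 and 394 CPM in Ikkb_cKO (edgeR log2 fold change -2.01, SE 0.29, adjusted p = 0.000253). Further falls were Tsc22d3, a glucocorticoid-induced gene (edgeR log2 fold change -2.10, SE 0.47, adjusted p = 0.00835), Ppp1r15a, a stress-response phosphatase subunit (edgeR log2 fold change -1.75, SE 0.27, adjusted p = 0.000422), and the ubiquitin gene Ubb (edgeR log2 fold change -1.68, SE 0.29, adjusted p = 0.000772). Cd81, a tetraspanin of the adhesion list, had an edgeR log2 fold change of -1.24 (adjusted p = 0.0235), and Apoe, which is also a macrophage gene, of -0.82 (adjusted p = 0.0392). The other 9 macrophage genes summed to 56.7 to 278 CPM in WT and 0 to 124 CPM in Ikkb_cKO mast cells, from 43 UMIs in all, and overlapped between genotypes. Without either WT library or Ikkb_cKO library 1 both Cd81 and Apoe lost their calls, Apoe also without Ikkb_cKO library 2, as did Tsc22d3 without WT library 1 or Ikkb_cKO library 1 and Slc7a8 without Ikkb_cKO library 1.

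Whether the genotype difference in mast cells differed from that in other classes was tested by an interaction of genotype and cell class with edgeR, added after the data were examined. It passed for 53 of 1858 genes against macrophages (2.85%), 27 of 5153 against lymphocytes (0.524%) and 57 of 8354 against collagen-expressing cells (0.682%). Of the named genes, which were called for their difference in mast cells, Fos, Ier2, Zfp36, Dusp1, Klf6, Nfkbia and Ppp1r15a passed against all 3 classes. In the genotype tests of these classes by themselves 30.3% of 2760 genes passed in macrophages and 0.665% of 5713 in lymphocytes. Macrophages numbered 503 and 525 in WT but only 13 and 21 in Ikkb_cKO libraries 1 and 2, with more in library 3. Their median depth was 2031 and 2213 UMIs in WT and 971 and 877 UMIs in Ikkb_cKO libraries 1 and 2. Macrophage values by genotype thus rest on few, shallow Ikkb_cKO cells. The log2 difference of Fos between genotypes was -0.57 (adjusted p = 0.104) in macrophages, -1.09 (adjusted p = 0.1) in lymphocytes and -0.18 (adjusted p = 0.656) in collagen-expressing cells by edgeR. Ier2 was also lower in macrophages by edgeR, by 1.40 on the log2 scale, but its levels there overlapped between genotypes. They were 528 and 468 CPM in WT and 312, 555 and 132 CPM in Ikkb_cKO libraries 1, 2 and 3. In lymphocytes Ier2 differed by -0.76 (adjusted p = 0.222 by edgeR). Dusp1 moved the other way in macrophages, 0.56 (adjusted p = 0.0293), and in collagen-expressing cells, 1.22 (adjusted p = 0.00334). Furin passed against macrophages and collagen-expressing cells and not against lymphocytes, where its own difference was 2.26 (adjusted p = 0.088).

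Signals that mast cells receive were looked for in the collagen-expressing cells, 5587 cells that include the Prrx1-expressing mesenchyme. Of 17 listed ligands 14 were tested there, 5 rose and 4 fell, with a median log2 difference of 0.71 against 0.03 over all genes, while 17.1% of all 10484 tested genes rose and 18.0% fell. Kitl, the gene of stem cell factor, had 37.7 and 41.6 CPM in WT and 93.0, 62.3 and 98.0 CPM in Ikkb_cKO (edgeR log2 fold change 1.08, SE 0.22, adjusted p = 0.0126), and Il33, the ligand of Il1rl1, 15.8 and 16.0 CPM in WT and 55.2, 37.7 and 92.2 CPM in Ikkb_cKO (edgeR log2 fold change 1.98, SE 0.37, adjusted p = 0.0104). Tslp, an epithelial and stromal cytokine, fell, with 17.1 and 18.2 CPM in WT and 6.13, 7.55 and 3.84 CPM in Ikkb_cKO (edgeR log2 fold change -1.74, SE 0.29, adjusted p = 0.00633). All 3 separated the genotypes without overlap, and mast cells had 0 UMIs of each. The other calls were Il13, Csf2 and Fn1, which rose, and Tac1, Ccl2 and Lama2, which fell. Il13 and Csf2 were rare in these cells, with an Il13 UMI in 0.412% and a Csf2 UMI in 0.859% of them at a median depth of 3718 UMIs. In lymphocytes, at 2620 UMIs, the shares were 28.5% and 15.7%, and in macrophages, at 1972 UMIs, either gene was found in 0 of 1163 cells, which allows a share of up to 0.258%. Free RNA as a source of the Il13 and Csf2 counts was not tested. Leaving out either of the WT libraries left 1 ligand higher and 2 lower, with Kitl, Il33 and Tslp past the threshold in neither case.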

How the data were processed

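The authors deposited a matrix of UMI counts, unnormalised whole numbers by gene and barcode, for each of the 5 libraries. Cells were captured with the 10x 3' v2 kit, per the labels' protocols. Per the submitters' processing notes the tool was Cell Ranger 1.3.0 and the build mm10. Per the file headers the matrices were written by software version 3.0.1 in format version 2. How reads were counted is not given in the sources used. Counting of transcript ends gives levels that are not scaled by length, and where 2 genes are set side by side the values are UMI counts or shares of UMIs, not levels per length. Of 31053 genes, 71 lines carry a repeated symbol and were kept by identifier.

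Barcodes under 300 genes or over 10% mitochondrial UMIs were removed (473 of 11084). Mast cells were chosen by the protease and collagen shares given above. Their genes, the gene lists and the tests were chosen with earlier results of these data known. C1q-positive macrophages had at least 0.3% C1qa, C1qb and C1qc UMIs. Lymphocytes had less than that and at least 2 UMIs over Cd3d, Cd3e, Cd3g, Trbc1, Trbc2, Trac, Il7r and Gata3. Both had under 1% collagen UMIs, and collagen-expressing cells had 1% or more. Doublets were not removed: Scrublet's automatic cut marked 39 barcodes (0.352%), so the highest scores at a rate of 0.008 per 1000 cells (240 barcodes, 218 of them kept) were removed as an alternative.

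UMIs were summed per library and class, filtered with filterByExpr, scaled by TMM and tested in edgeR (quasi-likelihood, robust). Benjamini-Hochberg adjustment covered all genes tested, at a threshold of 0.05. Libraries, not cells, were the replicates. Levels in CPM are UMIs scaled to 1000000 per class and library, without TMM. The genotype test in mast cells was tested on simulated data. Named genes were the 5 markers, Tpsab1, Mrgprb2, Fcer1a, Ms4a2, Hdc, Gata2 and Ikbkb, the 25 largest rises over other cells, the 12 largest rises and falls by genotype among called, non-overlapping genes of at least median abundance (leaving out gene models, ribosomal, mitochondrial, haemoglobin and sex-linked genes from the genotype ranking), and per list up to 6 of highest level and every called member. Other genes of the lists, and Gata1, Il5, Mcpt8 and the genes of the protease clusters, were named after their values were seen.

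Alternatives were other membership thresholds and cell filters, doublet removal, thinning to 1000 UMIs per cell, a replicate block, each library left out, DESeq2's size factors and Wald test, and other low-count filters. Chosen after seeing the data were summing alike libraries, leaving out the 3 cells with Cd74, and the interaction of genotype and cell class. Tools were Python 3.11.15, numpy 2.4.6, pandas 2.3.3, scipy 1.17.1, scanpy 1.11.5, R 4.3.3, edgeR 4.0.16, DESeq2 1.42.0 and limma 3.58.1.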

Additional observations from a re-analysis of the deposited data

Results flagged for a closer look

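Among the 41 named genes called between genotypes in mast cells, 42 gene and class pairs passed the interaction test of edgeR's quasi-likelihood method. In these the genotype effect differed between mast cells and another cell class of the same libraries. The genes were picked for their difference in mast cells in the same data, which favours such pairs, so the count is a description. Over all genes the test passed for 2.85% against macrophages, 0.524% against lymphocytes and 0.682% against collagen-expressing cells. The values are log2 fold changes of Ikkb_cKO over WT in mast cells minus those in the other class, so a negative value means a lower Ikkb_cKO level in mast cells relative to the other class. Mast cell sums held 18547 to 123476 UMIs per library, and depth per cell moved with genotype. Its part in these differences was not tested.

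The macrophage side of the next values rests on 13 and 21 cells in Ikkb_cKO libraries 1 and 2. Against C1q-positive macrophages, the difference was positive for Sla (2.82), Furin (2.36), Nr4a3 (2.32) and Vmp1 (1.76). It was negative for Dusp1 (-3.10), Fos (-2.93), Ier2 (-2.86), Zfp36 (-2.78), Tsc22d3 (-2.40), Nfkbia (-2.27), Tnf (-2.26), Klf6 (-1.99), Slc29a1 (-1.97), Ppp1r15a (-1.53) and Klf2 (-1.42).

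Against lymphocytes, the difference was positive for Csf2 (5.19) and Ube2v2 (2.81). It was negative for Ier2 (-3.08), Cd69 (-2.84), Dusp1 (-2.69), Klf6 (-2.47), Fos (-2.41), Zfp36 (-2.05), Ppp1r15a (-1.91), Nfkbia (-1.85) and Egr1 (-1.55).

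Against collagen-expressing cells, the difference was positive for Csf2 (4.97), Furin (2.90), Ube2v2 (2.23) and Nr4a3 (1.90). It was negative for Cd69 (-5.54), Dusp1 (-3.73), Ier2 (-3.35), Fos (-3.23), Klf6 (-2.99), Zfp36 (-2.92), Tsc22d3 (-2.90), Jun (-2.16), Ppp1r15a (-1.86), Egr1 (-1.75), Klf2 (-1.60) and Nfkbia (-1.42).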

How the results depend on the processing

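The fits rest on 133 cells in 5 libraries, with 8 cells in Ikkb_cKO library 2, and 728 genes had enough UMIs to be tested between genotypes. Of 41 named genes called between genotypes, 21 kept their call in every alternative in which they were tested (20 of 23 for Vegfa, 22 of 23 for Csf2 and all 23 for the rest), and 102 of 934 values by gene and alternative lost it, with 0 reversed. The counts of 72 genes higher and 44 lower became 40 and 27 with cells thinned to 1000 UMIs, where fewer genes were tested, 43 and 21 by DESeq2's Wald test, 52 and 99 without a low-count filter, and 24 and 18 with both pairs of alike libraries summed. Summing Ikkb_cKO libraries 1 and 2 alone gave 109 and 53. Leaving out a library gave 21 to 112 genes higher and 16 to 103 lower. Apart from the thinned and summed fits, the cause was not tested.

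With the replicate number as a block, 93 genes were higher and 75 lower, and of the named genes called in mast cells Slc18a2 alone lost its call (adjusted p = 0.0983 by edgeR). Among the ligands in collagen-expressing cells Csf2 lost its call (0.109). The labels give the numbers without saying that they pair the libraries, so the block was not used. Deviations of same-numbered libraries correlated at 0.125 and -0.091. The deviations of the 2 WT libraries mirror each other (r = -1), so these correlations cannot show whether libraries are paired. The share of mast cells under the block differed by 0.478 points. Leaving out a library moved that difference between -0.328 and 0.507 points, and against cells under the collagen limit it was -0.128.

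With genes kept at 10 UMIs in 2 sums, mast cells had 633 genes higher and 1198 lower than macrophages, where leaving out a library gave 195 to 397 and 175 to 410, and 1408 lower than lymphocytes. Niche ligands numbered 1 to 6 higher and 2 to 5 lower with a library left out.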

Other observations

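Calca, the gene of the neuropeptide CGRP, was singled out after its values were seen. It had 2 UMIs in WT and 46 UMIs in Ikkb_cKO mast cells, a ratio of 47.1 per UMI (95% counting interval 12.3 to 401, counting error only), from 14 cells.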
